A study of Homo sapiens with 60 samples.

Results

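The subject is a water extract of Aucklandiae Radix at its medium dose, 100 ug/mL, given for 24 h to HepG2 cells, a line grown from a human liver cancer. Its 3 libraries were chosen by the extract and dose in their titles and set against the 3 libraries titled Vehicle(DMSO). They make 6 of the 60 RNA-seq libraries of a series with 20 groups of 3, in which 6 herbal extracts were each given at a low, a medium and a high dose beside wortmannin (a PI3-kinase inhibitor) and the vehicle. The other groups used here are the same extract at 20 and 500 ug/mL (3 libraries each) and the medium doses of Liriopis, Schisandrae, Longan and Zizyphi (100 ug/mL each) and Polygalae (90 ug/mL) extracts, 15 libraries in all. All of them are the same unmodified cell line after 24 h. The sample labels put the vehicle at 0.1% DMSO and the design text puts it at 2%, so the solvent level is uncertain. The labels do not say that replicates came from separate cultures, so all p-values measure the spread between these libraries, which may be technical. Vehicle and Aucklandiae libraries carry sample codes of different sets, and what a set stands for is not given in the sources used here, so in the comparison with vehicle the code set and the extract cannot be told apart. All 60 titles name the same batch, BatchA, and the 3 Aucklandiae doses share a code set.

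Aucklandiae Radix is the dried root of Aucklandia lappa, a plant of the daisy family known for sesquiterpene lactones such as costunolide and dehydrocostus lactone. Much of what follows concerns NRF2 (gene NFE2L2), a transcription factor that the protein KEAP1 holds at a low level by marking it for degradation. Electrophilic compounds that react with cysteines of KEAP1 let NRF2 accumulate, pair with small MAF proteins at antioxidant response elements, and raise genes that reduce carbonyls and quinones, make and use glutathione and thioredoxin, and export conjugates. In hepatocytes these genes are part of the defence against reactive plant and drug compounds.

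The 3 medium-dose libraries held 27807748, 25279468 and 26467850 counts and the 3 vehicle libraries 27049189, 21940977 and 21570157, within 20209694 to 36410588 over all 60. All 10 hepatocyte-like markers of HepG2 cells were above 1 CPM (counts scaled to the TMM library total, not per gene length) in both groups, and their sum was 43277 to 44887 CPM at 100 ug/mL against 45518 to 49406 CPM in vehicle. Its largest part was APOB, at 24372 to 26438 CPM against 26179 to 29395 CPM. ALB was at 6486 to 7549 CPM against 6430 to 7021 CPM. The sum of 8 fibroblast and stellate markers was 63.2 to 68.6 CPM against 63.6 to 71.1 CPM, with COL1A2, DCN and LUM at 0 in both groups. The sum of 6 endothelial markers was 4.54 to 5.25 CPM against 5.46 to 5.95 CPM, with KDR and TEK at 0, and that of 8 blood and macrophage markers was 972 to 992 CPM against 981 to 1022 CPM, with PTPRC, CD3E and HBB at 0. Most of the endothelial sum was PECAM1 (mean 3.38 against 3.94 CPM). Most of the blood and macrophage sum was LYZ (932 against 949 CPM), followed by CD68 (48.7 against 47.2 CPM). Each sum follows a few genes and does not by itself identify a cell type. Replicate 1 stood apart in 3 of the 4 groups. The share of counts from mitochondrial mRNAs was 16.6, 8.91 and 10.2% at 100 ug/mL, against 16.1, 13 and 13.1% in vehicle, and the replicate 1 of the 20 ug/mL group was likewise high at 14.5% against 8.41 and 9.18% in its other two libraries. The slope of gene level on gene GC content, per 10 percentage points of GC, was -0.0631, -0.0108 and -0.0776 on the log2 scale at 100 ug/mL, against -0.123, 0.00638 and 0.00966 in vehicle. In a bulk sample, fewer cells of a type and less RNA per cell cannot be told apart.

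**Figure D1:**
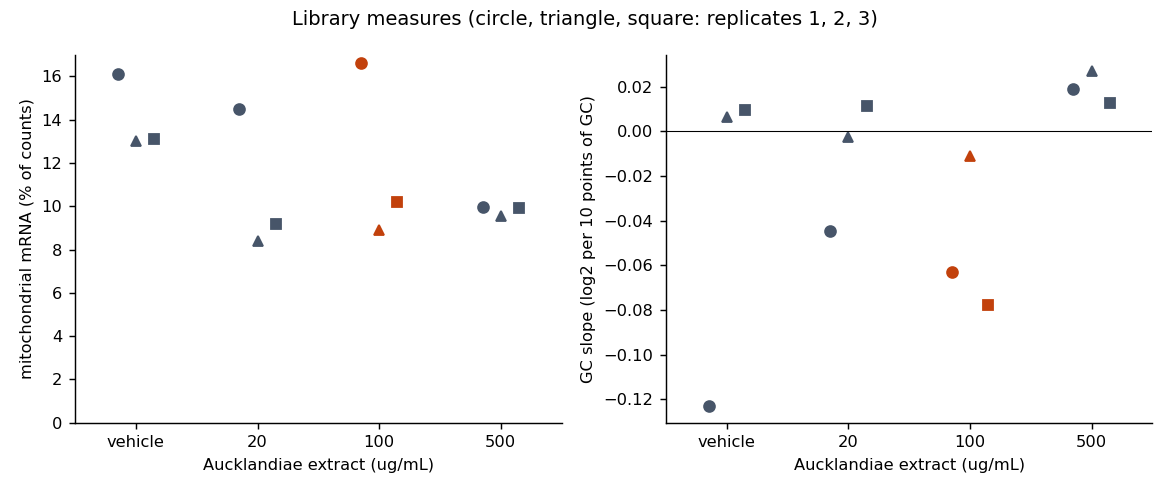
Share of counts from mitochondrial mRNAs (percent, left) and slope of gene level on GC content (log2 per 10 percentage points of GC, right) in each vehicle and Aucklandiae library, with replicates 1, 2 and 3 as circle, triangle and square. Replicate 1 is the highest for mitochondrial mRNA at 100 ug/mL (16.6%), at 20 ug/mL (14.5%) and in vehicle (16.1%), and the lowest GC slopes shown belong to vehicle replicate 1 and to replicates 3 and 1 at 100 ug/mL.

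At 100 ug/mL most changes were small, and the largest rises by the naming rule were mainly in enzymes that reduce reactive carbonyls or join them to glutathione. Among the 10 largest were the aldo-keto reductases AKR1B10, AKR1C1 and AKR1C2, the alkenal reductase PTGR1 and the glutathione transferases GSTA1 and GSTA2, 1.84- to 2.88-fold over vehicle. Among the 10 largest falls were IGF2, ARSI and SLC13A3, at -0.54 to -0.52 on the log2 scale. Of 16517 genes tested, 911 (5.52%) passed an adjusted p of 0.05 in edgeR's quasi-likelihood test, 503 higher (3.05%) and 408 lower (2.47%). The median size of a called change was 0.27 on the log2 scale, and 75 genes changed at least 1.5-fold, 40 of them higher and 35 lower. In 871 of the 911 called genes all 3 medium-dose libraries lay beyond all 3 vehicle libraries. Calling itself favours such genes, and the share over all tested genes was not counted. The count was 302 without medium-dose replicate 3, 473 without medium-dose replicate 2, 1173 without medium-dose replicate 1, and 479, 535 and 593 without vehicle replicate 1, 2 or 3. It was 623 without replicate 1 of both groups.

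**Figure D2:**
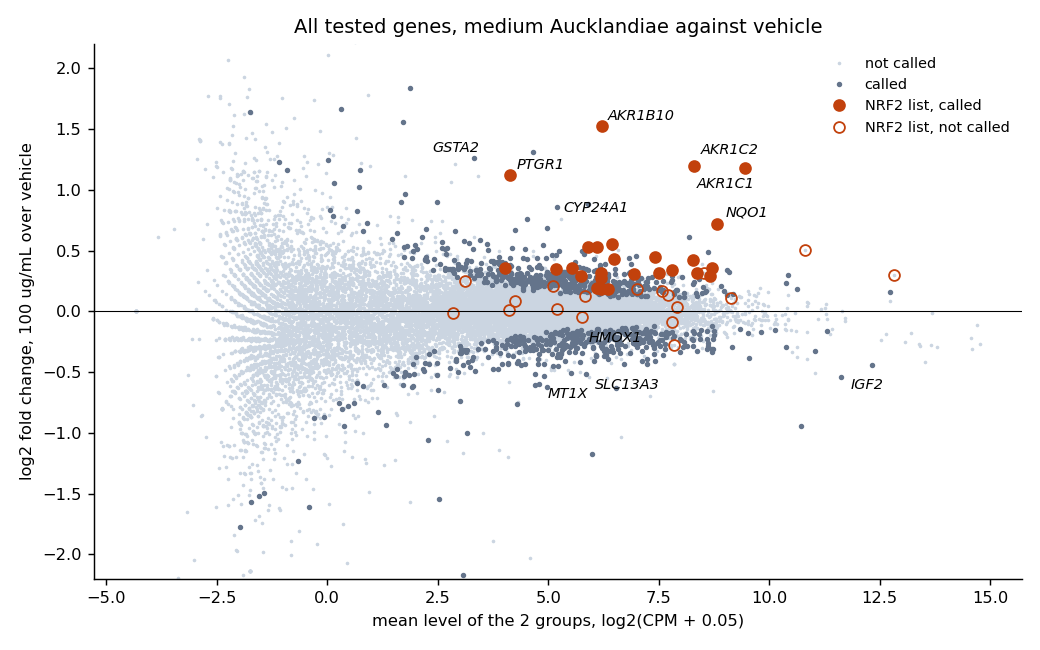
Log2 fold change of 100 ug/mL over vehicle (y axis) against the mean level of both groups on the log2(CPM + 0.05) scale (x axis), 1 point per tested gene; 63 genes lie outside the plotted range of 2.2 on the log2 scale in either direction. Orange circles are NRF2 list members, filled where the adjusted p was below 0.05. AKR1B10, at 1.53, stands above other genes of its level, and the filled circles all lie above 0.

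AKR1B10, an NADPH-dependent reductase of aldehydes and retinal (GRCh38 chr7:134527592-134541408, plus strand, GENCODE 29), had 107, 108 and 113 CPM at 100 ug/mL, against 34.6, 39.3 and 40.3 CPM in vehicle. Its lowest medium-dose library was far above its highest vehicle library, and its log2 fold change was 1.53 ± 0.05 (standard error; adjusted p = 1.4e-26), or 2.88-fold, the smallest p of the comparison. AKR1C1, a reductase of progesterone and lipid aldehydes (chr10:4963253-4983283, plus strand), had 988, 960.1 and 968 CPM against 427, 416 and 444 CPM, a log2 fold change of 1.18 ± 0.06 (adjusted p = 5.6e-20). Its close relative AKR1C2 (chr10:4987400-5018031, minus strand) had 468, 411 and 433 CPM against 197, 187 and 189.7 CPM, a log2 fold change of 1.19 ± 0.07 (adjusted p = 2.6e-17). The medium-dose and vehicle libraries did not overlap for either gene. PTGR1, which reduces the double bond of reactive alkenals and of leukotriene and prostaglandin metabolites (chr9:111549722-111599893, minus strand), had 26.5, 23.4 and 22.3 CPM against 11.3, 11.3 and 10.6 CPM, a log2 fold change of 1.12 ± 0.09 (adjusted p = 7.5e-13). AKR1C3, which also makes testosterone from androstenedione, followed at 0.53 ± 0.08 (adjusted p = 3.3e-05), with 64.6, 73.6 and 73.5 CPM against 49.7, 49.0 and 48.2 CPM. Of the 8 reductases listed, 7 rose, with a median log2 fold change of 0.82 beside -0.002 over all genes tested. The smaller rises were those of AKR1B1 (0.32), the aldose reductase, and AKR1A1 (0.19), and the carbonyl reductase CBR1 was at 0.09 (adjusted p = 0.65).

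**Figure D3:**
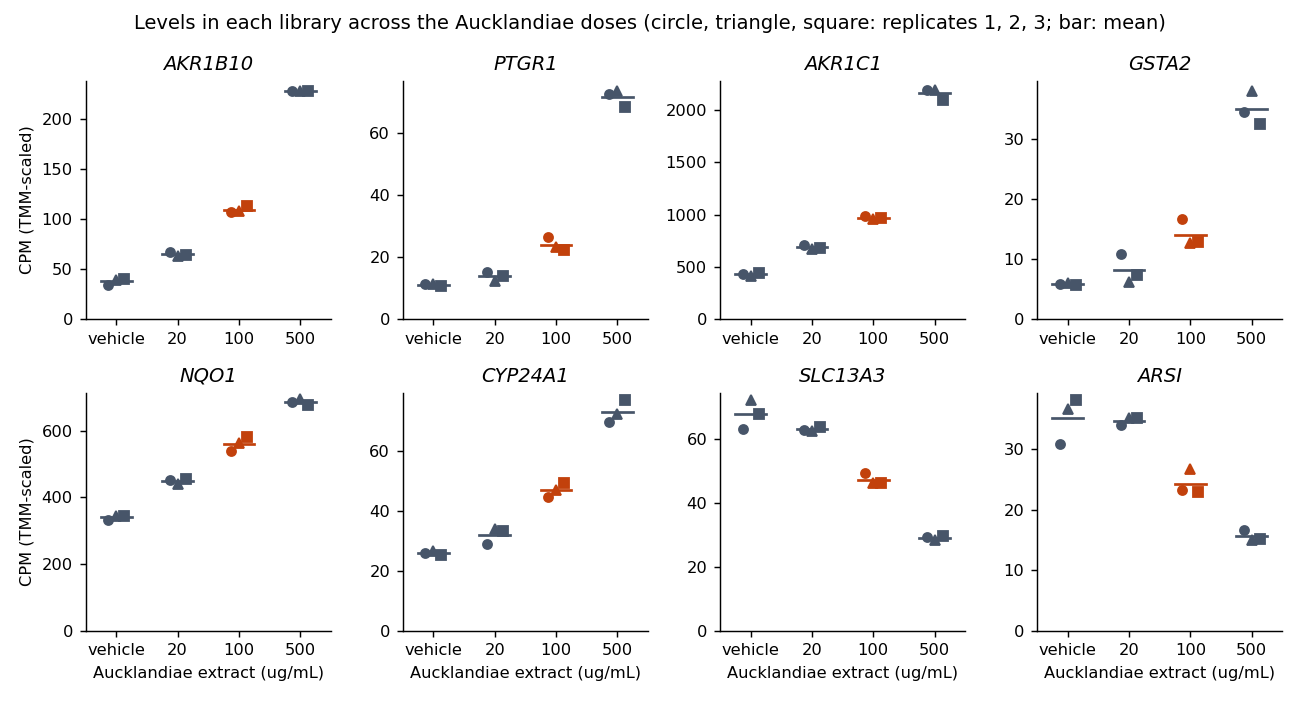
Level of 8 genes (CPM, y axis from 0) in each vehicle, 20, 100 and 500 ug/mL library, with replicates 1, 2 and 3 as circle, triangle and square and the group mean as a bar; the 100 ug/mL libraries are orange. The 100 ug/mL points lie between the 20 and 500 ug/mL points in each panel, higher than vehicle for 6 genes and lower for SLC13A3 and ARSI.

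The pairs AKR1C1 with AKR1C2 and GSTA1 with GSTA2 are close copies whose members rose together, and their promoters are shown to compare, within a pair, the sequence ahead of a start site of each gene. The start site used for AKR1C2 lies well inside the GENCODE 29 span of that gene, chr10:4987400-5018031, and not at its edge. The 250 bases before the start site, taken from RefSeq on GRCh38.p14 and printed along the gene's strand, are those of AKR1C1 (chr10:4963165-4963414, plus strand), AKR1C2 (chr10:5003858-5004107, minus strand), GSTA1 (chr6:52803817-52804066, minus strand) and GSTA2 (chr6:52763476-52763725, minus strand). The AKR1C pair was identical at 245 of 246 aligned bases (99.6%) and the GSTA pair at 243 of 250 (97.2%). RSEM, one of the tools in the submitters' processing notes, divides reads that match several genes by a statistical model, so the split of counts within each pair is an estimate; the transcripts were not compared here. The motif searched was the antioxidant response element core, TGACNNNGC on both strands; capitals would mark a match, and these 4 windows have none.
AKR1C1: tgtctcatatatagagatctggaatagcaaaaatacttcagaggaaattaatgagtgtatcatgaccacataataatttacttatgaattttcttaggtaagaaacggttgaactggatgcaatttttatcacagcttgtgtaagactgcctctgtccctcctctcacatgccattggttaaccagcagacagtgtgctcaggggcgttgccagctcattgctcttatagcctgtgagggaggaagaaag
AKR1C2: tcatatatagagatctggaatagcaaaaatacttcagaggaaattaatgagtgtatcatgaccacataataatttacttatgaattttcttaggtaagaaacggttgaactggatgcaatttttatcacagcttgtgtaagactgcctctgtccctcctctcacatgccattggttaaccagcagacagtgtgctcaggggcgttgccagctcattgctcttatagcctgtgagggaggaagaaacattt
GSTA1: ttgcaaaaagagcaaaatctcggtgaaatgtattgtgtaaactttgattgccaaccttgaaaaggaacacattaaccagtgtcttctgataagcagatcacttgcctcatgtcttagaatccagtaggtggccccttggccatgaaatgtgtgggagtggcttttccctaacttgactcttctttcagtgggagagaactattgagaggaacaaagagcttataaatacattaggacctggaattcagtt
GSTA2: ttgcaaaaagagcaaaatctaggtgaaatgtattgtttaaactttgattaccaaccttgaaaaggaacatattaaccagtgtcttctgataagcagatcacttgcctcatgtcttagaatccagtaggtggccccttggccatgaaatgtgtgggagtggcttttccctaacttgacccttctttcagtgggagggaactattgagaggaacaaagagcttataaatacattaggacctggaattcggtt

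The glutathione transferases of the alpha class join glutathione to reactive compounds. GSTA2 had 16.8, 12.7 and 12.8 CPM at 100 ug/mL, against 5.79, 6.03 and 5.75 CPM in vehicle, a log2 fold change of 1.26 ± 0.17 (adjusted p = 3.2e-06). GSTA1 had 91.6, 65.9 and 75.4 CPM against 45.2, 39.9 and 41.0 CPM, a log2 fold change of 0.88 ± 0.14 (adjusted p = 3.5e-05). In both genes replicate 1 was the highest medium-dose library, and no medium-dose library reached down to the vehicle range. Of 21 conjugating enzymes tested, 5 rose and none fell, beside 3.05% higher over all genes, with a median of 0.04; 3 rose without vehicle replicate 1 or 3, and 1 fell without medium-dose replicate 1. The other 3 were GSTO1 (0.49, adjusted p = 0.0002), an omega-class transferase, and the phenol sulfotransferases SULT1A1 (0.31, adjusted p = 0.017) and SULT1A2 (0.37, adjusted p = 0.014), which are themselves near-identical. UGT1A1, the bilirubin glucuronosyltransferase, was at 0.35 (adjusted p = 0.81), and the UGT2B members at 0.04 or below.

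The reductases belong to a list of 46 NRF2 target and pathway genes, of which 44 were tested; CHAC1 and ME1 were not. Against vehicle, 26 rose and none fell, set against 3.05% of all genes higher, and 40 of the 44 had a positive log2 fold change, with a median of 0.30. Among the 17 alternative analyses the number that rose lay between 13 (the 6 libraries fitted alone) and 32, and it was 21, 25 and 22 without vehicle replicate 1, 2 or 3, and 23, 22 and 22 without medium-dose replicate 1, 2 or 3. NQO1, the quinone reductase most used as a readout of NRF2 (chr16:69706996-69726951, minus strand), had 539, 563 and 581 CPM at 100 ug/mL, against 333, 343 and 345 CPM in vehicle. Its groups did not overlap, and its log2 fold change was 0.72 ± 0.04 (adjusted p = 4.3e-17); an antisense gene, AC092115.2, overlaps it.

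In the thioredoxin arm, which repairs oxidised protein thiols, 4 of 5 members rose, with a median of 0.43. TXNRD1, the cytosolic thioredoxin reductase, had 174, 218 and 201 CPM against 143, 148 and 146 CPM (0.44 ± 0.06, adjusted p = 1.2e-06). SRXN1, which restores overoxidised peroxiredoxins, had 97.3, 106 and 106 CPM against 72.1, 81.9 and 75.1 CPM (0.43 ± 0.05, adjusted p = 7.2e-08). Thioredoxin itself, TXN, was at 0.55 (adjusted p = 0.022) and peroxiredoxin PRDX1 at 0.36 (adjusted p = 0.00081), while PRDX6, at 0.14, was not called. In the glutathione arm 5 of 8 rose. GCLM and GCLC, the subunits of the rate-limiting enzyme of glutathione synthesis, were at 0.35 (adjusted p = 0.005) and 0.19 (adjusted p = 0.04), the cystine importer SLC7A11 at 0.35 (adjusted p = 0.0092), glutathione reductase GSR at 0.32 (adjusted p = 5.9e-07) and glutathione synthetase GSS at 0.18 (adjusted p = 0.022). GPX2 (0.32), GGT1 (0.02) and GPX4 (-0.28) were not called. Of 5 genes listed under NADPH supply, 2 rose and 3 were not called. The risers, enzymes of the non-oxidative branch of the pentose phosphate pathway, which makes no NADPH itself, were the transaldolase TALDO1 (0.31, adjusted p = 0.00057) and the transketolase TKT (0.29, adjusted p = 1.9e-06); the NADPH-making PGD and IDH1 were at 0.04 and 0.11.

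Export pumps and parts of the pathway's own control moved as well. ABCC3, a pump for conjugates on the blood side of the hepatocyte, had 77.2, 84.9 and 82.0 CPM against 54.5, 56.9 and 58.1 CPM (0.53 ± 0.06, adjusted p = 1.9e-09). ABCC2, the pump on the bile side, had 344, 363 and 362 CPM against 281, 253 and 263 CPM (0.42 ± 0.04, adjusted p = 1.2e-10). Neither pump had a vehicle library within its medium-dose range. SQSTM1 (0.34), an autophagy adaptor that binds KEAP1, UGDH (0.32), which makes the sugar donor for glucuronidation, OSGIN1 (0.29) and KEAP1 itself (0.27) also rose, with the largest adjusted p of these 4 at 0.0076. The mRNA of NRF2, NFE2L2, was at -0.09 (adjusted p = 0.51), and the small MAF partners MAFF, MAFG and MAFK lay between -0.01 and 0.13. HMOX1, the heme oxygenase that NRF2 shares with the repressor BACH1, had 56.1, 53.8 and 51.5 CPM against 51.2, 57.2 and 58.5 CPM, overlapping groups, at -0.05 ± 0.07 (adjusted p = 0.76). The ferritin heavy chain FTH1 had 2564, 1724 and 2032 CPM against 1437, 1557 and 1468 CPM; replicate 1 was much the highest, and its 0.50 ± 0.17 was not called (adjusted p = 0.076). The members of this list beyond AKR1B10, AKR1C1, AKR1C2, PTGR1, NQO1, TXNRD1, SRXN1, SLC7A11, GCLM and HMOX1 were named after their values were seen.

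**Figure D4:**
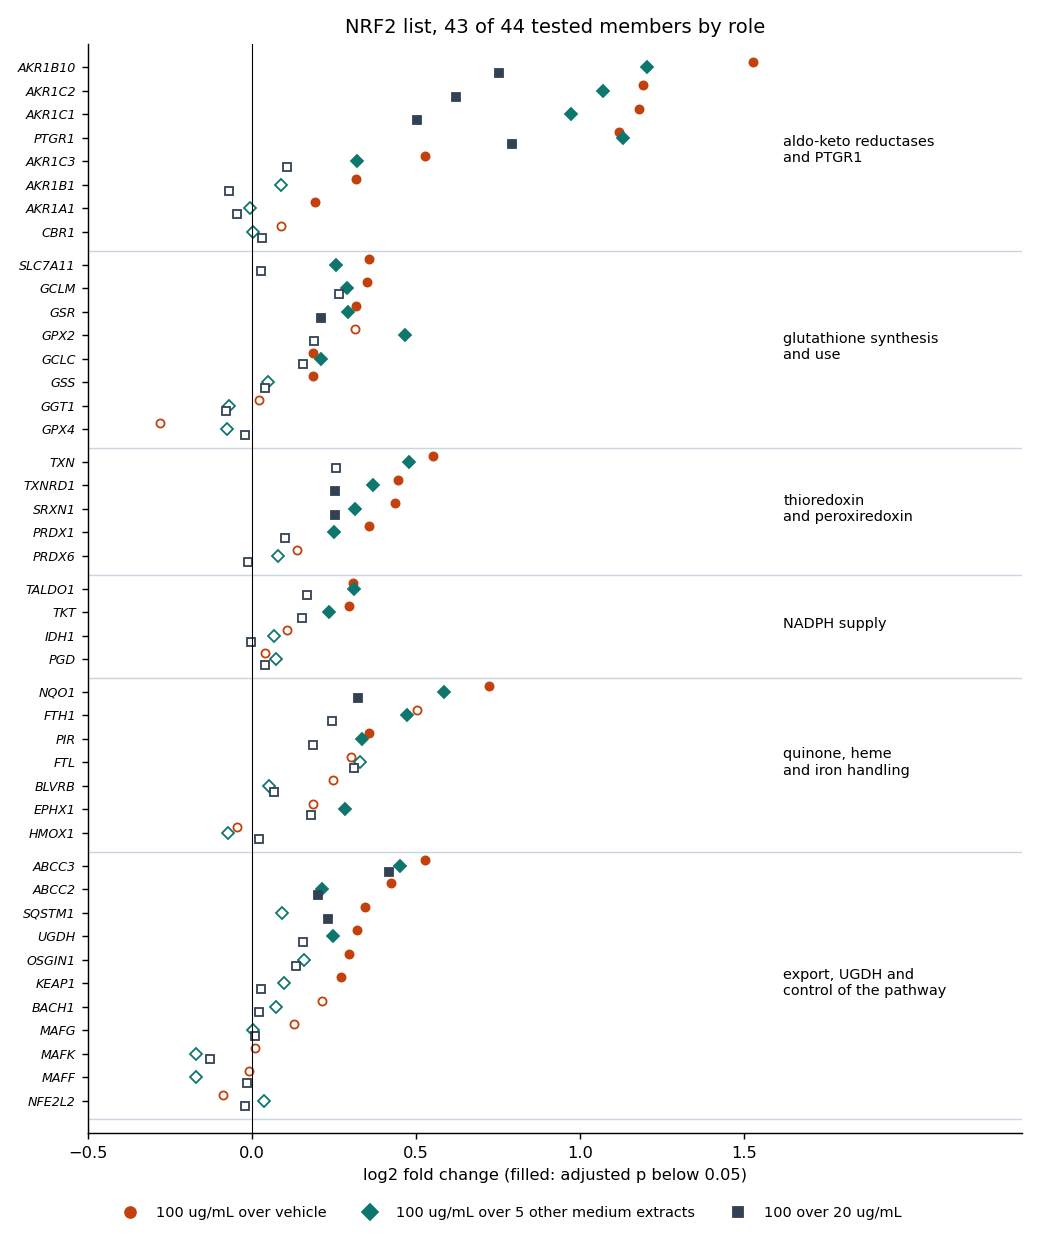
Log2 fold changes (x axis) of 43 of the 44 tested NRF2 list members (y axis), grouped by role: 100 ug/mL over vehicle (circles), over the medium doses of 5 other extracts (diamonds) and over 20 ug/mL (squares), filled where the adjusted p was below 0.05. The 4 strongest members, AKR1B10, AKR1C2, AKR1C1 and PTGR1, are filled in all 3 comparisons, while HMOX1 and NFE2L2 lie near 0 in each.

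Promoter sequence was examined for the list because its members moved together. TGACNNNGC, on either strand, lay within the 300-base windows (250 bases before to 50 after a start site) of 4384 of 27305 genes with a RefSeq promoter (16.1%) and of 2179 of 11232 tested genes (19.4%). It lay in those of 11 of the 33 tested list members with an entry (33.3%), 4 of the 20 that rose (20.0%) and 7 of the 13 that were not called (53.8%). The 4 that rose with a match were GCLM, KEAP1, PIR and TXNRD1. Stretches around the match are printed for the glutathione and thioredoxin genes GCLM (chr1:93909436-93909484, minus strand) and TXNRD1 (chr12:104215660-104215708 and chr12:104286910-104286958, plus strand, at 2 start sites), along the gene's strand with the match in capitals. The first base of the match lies 34 bases before the start site of GCLM, and 99 and 102 bases before those of TXNRD1. A match is a string of letters in a window and shows no binding, and no match says nothing of elements farther away.
GCLM: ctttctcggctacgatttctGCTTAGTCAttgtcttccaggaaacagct
TXNRD1 first site: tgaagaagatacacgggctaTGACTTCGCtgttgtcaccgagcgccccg
TXNRD1 second site: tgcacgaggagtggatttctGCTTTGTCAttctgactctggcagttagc

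Outside the list, CYP24A1, the hydroxylase that inactivates vitamin D (chr20:54153449-54173973, minus strand), had 44.9, 47.1 and 49.4 CPM at 100 ug/mL, against 25.8, 26.7 and 25.3 CPM in vehicle, a log2 fold change of 0.86 ± 0.07 (adjusted p = 1.9e-13) with no overlap. The lysosomal galactosidase GLA had 21.8, 20.7 and 21.4 CPM against 14.2, 15.1 and 15.2 CPM (0.52 ± 0.07, adjusted p = 1.6e-06), and of 21 lysosome and autophagy genes it rose together with NPC1 alone, while 1 rose without vehicle replicate 1 or 2 or medium-dose replicate 2 or 3, and 4 without medium-dose replicate 1. Among genes chosen after their values were seen, the retinal dehydrogenase ALDH1A1 had 344, 350.0 and 355 CPM against 238, 225 and 224 CPM (0.61 ± 0.04, adjusted p = 4.3e-17). The carboxylesterase CES1, which hydrolyses ester drugs and lipids, had 102, 103 and 101 CPM against 64.3, 76.5 and 72.5 CPM (0.53, adjusted p = 2.6e-11), the complement protease C1S was at 0.67 (adjusted p = 2.2e-08), the folate enzyme ALDH1L1 at 0.50 (adjusted p = 1.1e-05) and the secretion regulator CPLX2 at 0.49 (adjusted p = 7.9e-06). These 5 genes had every medium-dose library above every vehicle library. Low-level transcripts that rose, also chosen after their values were seen, were the non-coding RNA LUCAT1 with 1.68, 1.33 and 1.03 CPM against 0.56, 0.94 and 0.19 CPM (1.25, adjusted p = 0.0021), the pseudogene NMRAL2P with 2.50, 2.06 and 2.14 CPM against 1.08, 0.89 and 1.01 CPM (1.16, adjusted p = 0.00034), and AKR1B15, a near copy of AKR1B10, at 1.16 (adjusted p = 0.03). SLX1A, BEST1 and SLC22A18 also had large rises that cannot be assigned to 1 gene: SLX1A (1.31 ± 0.38, adjusted p = 0.032), which shares its place with a read-through to a sulfotransferase gene, BEST1 (0.90, adjusted p = 0.0049), which overlaps the opposite strand of FTH1, and SLC22A18 (0.76, adjusted p = 0.00095), which overlaps its antisense gene. Vehicle was the lowest of the 20 groups for each of them, and SLX1A lost its call in 7 of the 17 alternatives. The SLC22A18 mean was 28.6 CPM, against 16.9 CPM in vehicle and 23.9 to 26.8 CPM at the other medium doses.

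Some glycolysis and hypoxia genes rose by small amounts. Of 16 glycolysis genes 5 rose and none fell, beside 3.05% higher over all genes, with a median of 0.21: GPI (0.29, adjusted p = 1.4e-06), PGK1 (0.32), ENO1 (0.30), PGAM1 (0.27) and ALDOA (0.23). PGK1, the first ATP-making enzyme of the pathway, had 252, 252 and 255 CPM at 100 ug/mL, against 189, 201 and 217 CPM in vehicle. The number of the 16 that rose lay between 0, when the 6 libraries were fitted alone, and 9, with the GC slope and structured RNA share as covariates, and was 8 without medium-dose replicate 1. Of 17 hypoxia genes 4 rose, with a median of 0.14: the histone demethylase KDM3A (0.37, adjusted p = 1.7e-05), BNIP3 (0.34), PDK1 (0.28) and EGLN1 (0.22), whereas VEGFA (0.03) and CA9 (0.24) were not called. The 4 became 2 without vehicle replicate 2 or 3 or medium-dose replicate 1 or 3. Of 17 fatty acid oxidation genes 4 rose, with a median of -0.007. Among them was CPT1A (0.41, adjusted p = 0.0081), which carries fatty acids into mitochondria. Its mean was 55.4 CPM, against 42.4 to 60.5 CPM at the other medium doses and 41.8 CPM in vehicle, the lowest group. Of 9 iron genes 3 rose, with a median of 0.06: the transferrin receptor TFRC (0.31, adjusted p = 0.0037), the heme-making FECH (0.27) and SLC11A2 (0.14). The fatty acid oxidation count was 2 without vehicle replicate 2 or medium-dose replicate 2 or 3. The iron count was 1 without medium-dose replicate 3, and SLC11A2 lost its call in 13 of the 17 alternatives. Set against the medium doses of the 5 other extracts in place of vehicle, 1 of the 16 glycolysis genes (GPI) and 0 of the 17 hypoxia genes were called, with medians of 0.04 and 0.06. Likewise 0 of the 17 fatty acid oxidation genes and 2 of the 9 iron genes were called there, with medians of -0.011 and 0.048. In that comparison 2760 genes had an unadjusted p below 0.05 and 443 (2.68%) were called, 210 higher (1.27%) and 233 lower (1.41%). IGFBP1, a gene that insulin represses through FOXO, had 43.9, 34.5 and 36.7 CPM against 22.1, 22.4 and 27.3 CPM (0.68 ± 0.19, adjusted p = 0.021), and was at -0.16 (adjusted p = 0.61) against the other medium doses, with vehicle the lowest of the 20 groups.

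**Figure D5:**
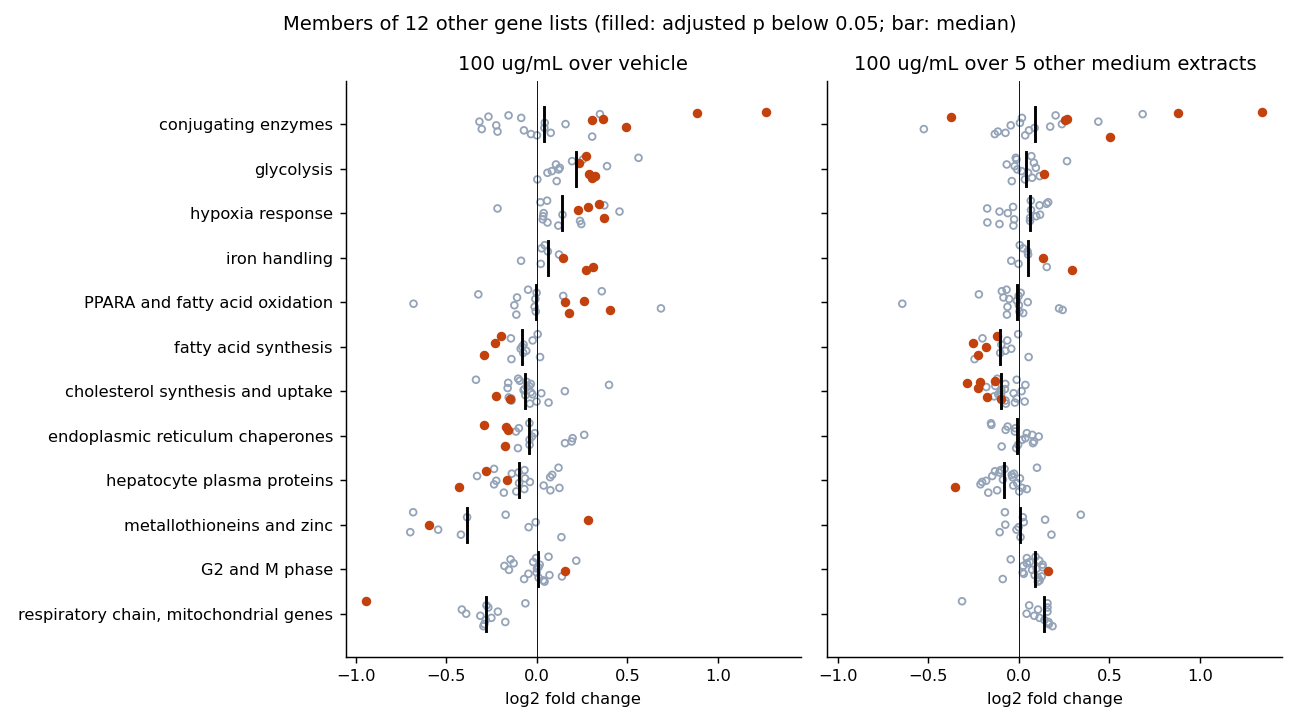
Log2 fold changes (x axis) of the tested members of 12 gene lists, at 100 ug/mL over vehicle (left) and over the medium doses of 5 other extracts (right), filled where the adjusted p was below 0.05, with the list median as a bar. The glycolysis median is 0.21 on the left and 0.04 on the right, and that of metallothionein and zinc genes is -0.39 and 0.01.

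IGF2, the fetal growth factor that HepG2 cells make in quantity (chr11:2129112-2149603, minus strand), had 2883, 2449.9 and 2434 CPM at 100 ug/mL, against 3810.3, 3616 and 3882 CPM in vehicle (-0.54 ± 0.08, adjusted p = 5.4e-06); INS-IGF2 and the antisense IGF2-AS share its place. SLC13A3, a transporter of dicarboxylates (chr20:46557823-46684467, minus strand), had 49.3, 46.4 and 46.3 CPM against 63.2, 72.3 and 67.8 CPM (-0.52 ± 0.05, adjusted p = 1.4e-09), and ARSI, an arylsulfatase, had 23.2, 26.7 and 23.0 CPM against 30.8, 36.7 and 38.2 CPM (-0.53 ± 0.07, adjusted p = 2.9e-06). None of the 3 overlapped between groups. Other large falls by the naming rule were AL132780.3 (-1.54, adjusted p = 0.0029), which lies within other genes, PRR36 (-0.73, adjusted p = 0.0011), PTMS (-0.63, adjusted p = 0.028), TCEA2 (-0.62, adjusted p = 0.032), HID1 (-0.52, adjusted p = 0.011) and MT1X.

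Metallothioneins bind zinc and copper and answer to metal supply. MT1X had 25.3, 18.2 and 22.9 CPM at 100 ug/mL, against 34.4, 31.5 and 34.3 CPM in vehicle (-0.59 ± 0.13, adjusted p = 0.0037), and it overlaps AC026461.1 and resembles the other copies. MT2A had 159.5, 94.3 and 109 CPM against 208, 185 and 196 CPM, and its -0.70 ± 0.23 was not called (adjusted p = 0.057). For both, replicate 1 was the highest medium-dose library and still below every vehicle library. Of 11 metallothionein and zinc genes 1 fell and 1, the zinc importer SLC39A10 (0.28, adjusted p = 0.04), rose, while 4 fell without medium-dose replicate 1 and none without medium-dose replicate 2. The list had a median of -0.39, against 0.01 for the comparison with the other 5 medium doses. Over the 20 groups, vehicle had the highest MT1X mean, 33.4 CPM.

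Some lipid synthesis, chaperone and plasma protein genes fell by small amounts, beside 2.47% lower over all genes. Of 13 fatty acid synthesis genes 3 fell and none rose, with a median of -0.08: the regulator SREBF1 (-0.29, adjusted p = 0.0045), the desaturase FADS2 (-0.23, adjusted p = 0.00054) and the elongase ELOVL6 (-0.20, adjusted p = 0.0051), while FASN (-0.14) and SCD (-0.06) were not called. The 3 became 2 without vehicle replicate 1 or medium-dose replicate 2, where ELOVL6 lost its call. Of 25 cholesterol genes 2 fell, HMGCS1 (-0.23, adjusted p = 0.0068) and SQLE (-0.15, adjusted p = 0.011), and against the other medium doses 6 did, with medians of -0.06 and -0.10. The means of HMGCS1 (317 CPM) and SQLE (335 CPM) lay within those of the other medium doses, 300 to 434 and 328 to 399 CPM. Medium Polygalae was the highest of the 20 groups for both. Neither HMGCS1 nor SQLE was called without vehicle replicate 1, SQLE was not called without medium-dose replicate 3, and 0 to 6 of the 25 fell over the alternatives. Of 16 endoplasmic reticulum chaperones 4 fell, CALR (-0.29, adjusted p = 0.0015), HERPUD1, HSP90B1 and HYOU1, and HSPA5, the central chaperone, was at -0.10 (adjusted p = 0.12). The 4 became 1 without medium-dose replicate 3 and 2 without medium-dose replicate 2 or any 1 vehicle library, and HSP90B1 lost its call in 12 of the 17 alternatives, RLE scaling among them. Of 22 plasma protein genes 3 fell, VTN (-0.43, adjusted p = 0.0011), FGB (-0.28, adjusted p = 0.017) and C3 (-0.17, adjusted p = 0.003), and ALB, at 0.08 (adjusted p = 0.66), was not called. The 3 became 1 without medium-dose replicate 3 and 2 without vehicle replicate 1 or medium-dose replicate 2. Of 19 p53 targets 2 fell, the cell-cycle inhibitor CDKN1A (-0.33, adjusted p = 0.011) and BTG2 (-0.43, adjusted p = 0.02), and neither was called without vehicle replicate 2 or without medium-dose replicate 1. Of 10 beta-catenin targets NKD1 (-0.30, adjusted p = 2.8e-05) and GLUL (-0.12, adjusted p = 0.017) fell, and GLUL was not called without vehicle replicate 1 or 2 or medium-dose replicate 2 or 3. Against the other medium doses, 0 of the 16 chaperone, 19 p53 and 10 beta-catenin genes were called. Their medians there were -0.009, -0.03 and -0.015. In that comparison 4 fatty acid synthesis genes and 1 plasma protein gene were lower, with medians of -0.10 and -0.08. Vehicle was the highest of the 20 groups for CALR (1460 CPM), BTG2 (19.7 CPM) and NKD1 (627 CPM). It was not for HERPUD1, HSP90B1, HYOU1, CDKN1A or GLUL.

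Several other programmes held few or no called members in number, beside 3.05% higher and 2.47% lower over all genes. Of 20 G2 and M phase genes 1 rose, CCNB1 (0.15, adjusted p = 0.047), and in edgeR's test 0 of 19 DNA replication genes were called, with medians of 0.004 and 0.012 on the log2 scale; 3217 of all genes had an unadjusted p below 0.05. Of 18 ATF4 stress genes 2 rose and 1 fell, and DDIT3, a marker of severe endoplasmic reticulum stress, was at -0.03 (adjusted p = 0.95). Of 18 heat shock chaperones 3 rose and 1 fell, and the inducible HSPA1A was at -0.04. The ATF4 and heat shock lists both had larger shares called than all genes. Without medium-dose replicate 3, 1 ATF4 gene and no heat shock gene rose. Of 6 AHR targets 1, the partner protein ARNT, fell, and CYP1A1, the enzyme that dioxin-like ligands raise most, was at -0.03 (adjusted p = 0.93). None of 7 PXR and CAR targets was called, CYP3A4 being at 0.08. The 13 mRNAs of the mitochondrial genome had a median of -0.28, with 1 called lower, MT-ATP8 (-0.94 ± 0.24, adjusted p = 0.014), which overlaps MT-ATP6. Its values, 1691, 772 and 977 CPM at 100 ug/mL against 2502, 2467 and 1643 CPM in vehicle, overlap between groups. This call was lost without vehicle replicate 1 or 2 or medium-dose replicate 2 or 3, and 6 of the 13 were lower without medium-dose replicate 1. CCNB1 was called on leaving out vehicle replicate 3 but no other single library, and ARNT on leaving out medium-dose replicate 1 but no other. The mitochondrial share of a library differed within groups as given above, its part in this result was not tested, and the list median ran from -0.69 to -0.02 over the alternatives.

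Comparisons between Aucklandiae doses stay within 1 code set. Against 20 ug/mL, 57 genes (0.345%) were called at 100 ug/mL, 30 higher (0.182%) and 27 lower (0.163%), and 11 of the 44 NRF2 list members were among those higher, with none lower. AKR1B10 had 107, 108 and 113 CPM at 100 ug/mL, against 67.5, 63.4 and 64.3 CPM at 20 ug/mL (0.75 ± 0.05, adjusted p = 1.4e-14). PTGR1 had 26.5, 23.4 and 22.3 CPM against 15.2, 12.3 and 14 CPM (0.79 ± 0.09, adjusted p = 6.7e-08), and NQO1 had 539, 563 and 581 CPM against 453, 439.8 and 454 CPM (0.32 ± 0.04, adjusted p = 6.2e-06). For these 3 genes every 100 ug/mL library lay above every 20 ug/mL library. The others of the list were AKR1C1 (0.50), AKR1C2 (0.62), ABCC3 (0.42), SRXN1 (0.25), TXNRD1 (0.25), SQSTM1 (0.23), GSR (0.21) and ABCC2 (0.20). GSTA2 (0.78, adjusted p = 0.014), GSTA1 (0.71, adjusted p = 0.0031), CYP24A1 (0.56, adjusted p = 1.6e-07) and, chosen after its values were seen, ALDH1A1 (0.32, adjusted p = 2.1e-07) were higher too. Lower than at 20 ug/mL were ARSI (-0.51, adjusted p = 1.1e-05) and SLC13A3 (-0.41, adjusted p = 1.4e-06), the amino acid transporter SLC6A14 (-0.45, adjusted p = 2.8e-05) and, chosen after their values were seen, the kinase gene SBK1 (-0.65, adjusted p = 0.0052), the cartilage matrix gene MATN3 (-0.47, adjusted p = 3.7e-06) and the lysophospholipase ENPP2 (-0.55, adjusted p = 0.038). For SLC6A14 the 20 ug/mL group was the highest of the 20 groups (35.4 CPM) and was itself called above vehicle (0.23, adjusted p = 0.037). At 100 ug/mL SLC6A14 was at -0.22 against vehicle (adjusted p = 0.044), a call lost in 10 of the 17 alternatives. No glycolysis or hypoxia gene was called, with medians of 0.005 and -0.04; 1156 of all genes had an unadjusted p below 0.05. The count of 57 was 26 without replicate 3 of either group, 36 without medium-dose replicate 2 and 23 without replicate 1 of both.

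At 500 ug/mL, 2092 genes (12.7%) differed from 100 ug/mL, 1118 higher (6.77%) and 974 lower (5.9%), and of the 44 NRF2 list members 31 were higher and 2, NFE2L2 (-0.36) and the NADPH-making IDH1 (-0.18), lower. AKR1B10 had 228, 229 and 228 CPM at 500 ug/mL, against 107, 108 and 113 CPM at 100 ug/mL (1.06 ± 0.05). PTGR1, with 72.6, 73.7 and 68.6 CPM against 26.5, 23.4 and 22.3 CPM (1.57 ± 0.08), rose as well, and neither gene had overlapping libraries. From vehicle to 20, 100 and 500 ug/mL the mean level of AKR1B10 was 38.1, 65.1, 109.6 and 229 CPM, with no overlap between neighbouring doses. HMOX1, not called at 100 ug/mL against vehicle, had 104, 114 and 104 CPM at 500 ug/mL, against 56.1, 53.8 and 51.5 CPM at 100 ug/mL (0.99 ± 0.07, adjusted p = 1.6e-16). CES1 (0.07, adjusted p = 0.35) and VTN (-0.02, adjusted p = 0.91) were not called between 500 and 100 ug/mL. All 20 G2 and M phase genes were lower at 500 than at 100 ug/mL, with a median of -0.59, whereas 1 of the 20 was called at 100 ug/mL against vehicle. Metallothionein and zinc genes were lower in 7 of 11 cases, with a median of -0.96. Against the shared vehicle, 735, 911 and 4306 genes were called at 20, 100 and 500 ug/mL.

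Of the 443 genes called (2.68%) against the medium doses of the other 5 extracts, 210 were higher (1.27%) and 233 lower (1.41%), and of the NRF2 list 24 of 44 were higher and none lower, with a median of 0.22 beside 4e-04 over all genes. The log2 differences were 1.34 ± 0.12 for GSTA2 (adjusted p = 3.5e-11), 1.20 ± 0.04 for AKR1B10 (adjusted p = 3.8e-29), 1.13 ± 0.06 for PTGR1 (adjusted p = 9.9e-19) and 0.58 ± 0.03 for NQO1 (adjusted p = 9.6e-19). Chosen after its values were seen, ALDH1A1 was at 0.53 (adjusted p = 7.1e-20). In group means PTGR1 was at 24.1 CPM with the medium Aucklandiae dose and at 10.7 to 11.2 CPM with the other 5, AKR1B10 at 109.6 CPM and 40.9 to 57.8 CPM, and NQO1 at 561 CPM and 355 to 391 CPM. Of these 5, Polygalae shares the code set of Aucklandiae, and its medium dose had means of 11.2 CPM for PTGR1, 57.3 CPM for AKR1B10 and 383 CPM for NQO1. PTGR1, NQO1, AKR1C1, AKR1C2, GSTA1 and GSTA2 were second among the 20 groups only to the 500 ug/mL dose of the same extract. AKR1B10, at 109.6 CPM, was below that dose and level, within the spread of its own libraries (SD 3.23 CPM), with the high doses of Polygalae (111 CPM) and Schisandrae (109.6 CPM). IGF2, at 2589 CPM, was second lowest after 500 ug/mL, with the other medium doses at 3572 to 3787 CPM (-0.49 ± 0.06, adjusted p = 2.8e-07). The cell-surface protein gene CLDN6 (-0.44, adjusted p = 3.9e-06) and APOA5 (-0.43, adjusted p = 8.9e-05), a regulator of plasma triglycerides, both chosen after their values were seen, were lower. Against vehicle CLDN6 was called as well (-0.49, adjusted p = 5.7e-05), but APOA5 was not (-0.16, adjusted p = 0.36). The APOA5 mean was 16.4 CPM, against 18.3 CPM in vehicle and 21.2 to 23.8 CPM at the other medium doses. The count of 443 was 117 without medium-dose replicate 3, 220 without replicate 1 and 423 without replicate 2, and the NRF2 list count was 19, 17 and 23.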

How the data were processed

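Total RNA (integrity number over 7) was sequenced as directional mRNA libraries, 100-base pairs on an MGI instrument, per the labels. The authors deposited expected counts per gene, 60 columns in 1 table. STAR 2.7.3a, RSEM 1.3.3, Trim Galore 0.6.5, FastQC 0.11.9 and GRCh38 are named in the submitters' processing notes; neither the annotation release nor the strand setting is given in the sources used here. Symbols and positions come from GENCODE 29.

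Counts were rounded. filterByExpr kept 16517 genes, TMM factors were 0.92 to 1.08, and 1 edgeR 4.0.16 quasi-likelihood fit with a term per group over 60 libraries (R 4.3.3, limma 3.58.1) gave 4 main contrasts, each tested 2-sided: 100 ug/mL against vehicle, 20 ug/mL and the mean of 5 other medium doses, and 500 against 100 ug/mL. The same fit also tested 20 and 500 ug/mL against vehicle. P-values were Benjamini-Hochberg adjusted over all genes, at 0.05. CPM are TMM-scaled. Named genes were the 10 largest rises and falls among protein-coding genes that were called, reached 5 CPM and did not overlap between groups, up to 4 called members of each of 34 lists, and 16 fixed genes. Other genes were named after their values were seen; 2 genes are not reported here. The members, lists and rule were chosen with earlier results of these data known. Alternatives were RLE scaling, other filters, DESeq2 1.42.0, covariates, the replicate block, smaller fits and leaving out libraries.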

Additional observations from a re-analysis of the deposited data

How the results depend on the processing

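No called value of the named genes against vehicle reversed, and the other called genes were not followed individually. List medians near 0 changed sign over the alternatives, from -0.054 to 0.12 for conjugating enzymes, -0.011 to 0.05 for G2 and M phase and -0.004 to 0.032 for DNA replication, as did CYP1A1 (-0.11 to 0.03), and 1 NRF2 list member was called lower with no filter on low counts. Against vehicle, 911 called genes became 1783 with GC slope and structured RNA share as covariates, 203 without the 4 libraries of the lowest GC slope (among them vehicle replicate 1 and medium-dose replicate 3), 93 with the 6 libraries fitted alone, and, in analyses chosen after seeing the data, 1530 with the mitochondrial share as a covariate; leaving out 1 library gave 302 to 1173. The NRF2 count of 26 became 17 and 13 without those 4 libraries and with the 6 alone, and 21 to 25 leaving out 1 library. Against 20 ug/mL, 57 genes became 165 with no filter on low counts, 92 with the GC and structured RNA covariates, 35 without the 4 libraries, 1 with the 6 alone and, chosen after seeing the data, 106 with the mitochondrial covariate and 23 without replicate 1 of both, and 26 to 46 leaving out 1 library; the NRF2 count of 11 became 1 with the 6 alone and 7 to 11 leaving out 1. Against the other medium doses, 443 became 139 without the 4 libraries and 743 with the mitochondrial covariate, and 117 to 423 leaving out 1 (NRF2 count 17 to 23). At 500 against 100 ug/mL, leaving out 1 gave 1447 to 2001 genes (NRF2 count 28 to 33 over the alternatives). Same-numbered libraries deviated together by r = 0.11, 0.076 and -0.012 for the medium dose and vehicle, 0.38, 0.27 and 0.04 for the medium dose and 20 ug/mL (-0.34 to 0.11 between different numbers there), and -0.036, -0.058 and -0.019 for 500 and 100 ug/mL; in no comparison did all 3 pairs pass 0.1, so the numbers were not taken to pair the libraries. Each medium-dose library but replicate 3 correlated best with its own number at 20 ug/mL. With the replicate number as a block in all libraries the counts were 950, 61, 478 and 2126 genes; as a block in the 6 alone they were 292 against vehicle and 351 against 20 ug/mL (NRF2 count 20 and 21). The cause of these moves was not tested, and the smaller fits also had fewer libraries. DESeq2 gave 1034, 69, 631 and 2046.

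Of 86 named genes called against vehicle, 18 kept their call in all 17 alternatives, 12 higher (AKR1B10, AKR1C1, AKR1C2, PTGR1, GSTA1, GSTA2, NQO1, TXNRD1, SRXN1, CYP24A1, GLA and KDM3A) and 6 lower (among them IGF2, SLC13A3, ARSI, NKD1 and VTN), and 68 lost it in at least 1. All of these alternatives kept vehicle as the reference. Against the other medium doses KDM3A and NKD1 were not called, while AKR1B10, PTGR1, NQO1, IGF2, SLC13A3 and ARSI were. AKR1B10 ranged from 1.44 to 1.57 on the log2 scale. With 3 libraries a group, small changes in genes of few counts could be missed.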
